A study of Mus musculus with 8 samples.

Results

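The genes described here are 6 matrix metalloproteinases (Mmp2, Mmp3, Mmp9, Mmp10, Mmp13 and Mmp14) and 3 tissue inhibitors of metalloproteinases (Timp1, Timp2 and Timp3), measured in primary mouse myoblasts with a knockout (KO) or a knock-in (KI) of UTX, the X-linked histone demethylase encoded by Kdm6a. These 9 genes were chosen by name after an earlier look at the same tables, in which several of them differed between mutant and control cells. The mutant-to-control ratios are therefore given as a description, with no test. All 9 were found in each of the 3 deposited gene tables as loci of their own, none merged with another symbol, among 23115 loci with a symbol in the female knockout table, 22923 in the male knockout table and 22777 in the knock-in table.

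The cells came from satellite cells, the stem cells of skeletal muscle, of B6/129 mice. Female wild type (WT) cells carried Pax7-CreER, a Cre recombinase made in Pax7-expressing cells and switched on by tamoxifen, and Rosa26-Floxed-TdTomato, a red reporter that marks cells in which Cre has acted. Female KO cells carried UTX-Floxed in addition. The genotype field is empty for male WT, male KO, Ctrl-KI and KI cells, and the labels do not say which UTX allele KI carried. By the shared protocol, reporter-positive cells were sorted, grown with 20% serum, FGF and 2.5 µM 4-hydroxytamoxifen, controls included, and differentiated for 24 h. Each of the 4 knockout-study groups, WT and KO of either sex, had 1 library. Ctrl-KI and KI, both female, had 2 libraries per group, which share 1 pooled value in the table. The number and age of the animals behind a library are not given.

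Matrix metalloproteinases are zinc-dependent enzymes that are made as inactive precursors and cut collagens, laminins, fibronectin and proteoglycans, and also growth factors and receptors at the cell surface. The inhibitors bind the active site of these enzymes, and Timp2 also takes part in the activation of the Mmp2 precursor by Mmp14 at the cell membrane. In skeletal muscle, Mmp2, Mmp9 and Mmp14 are known for remodelling the basement membrane around fibres during repair and for helping myoblasts to migrate, and connective tissue cells and leukocytes are known sources of several of these enzymes.

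Levels are FPKM, fragments counted per transcript length and per size of the library, which can be compared between genes within a column. The only error is the confidence interval deposited with each value, since no group has replicate values. A gene was kept in a table if it reached 1 FPKM in 1 of the 2 columns, which left 12344 genes in the female, 11440 in the male and 11084 in the KI table. The ratio of a kept gene is log2((mutant FPKM + 1)/(control FPKM + 1)), which understates the difference of low genes, and its median over all kept genes was -0.08, -0.02 and -0.04. The deposited interval spanned a median of 119%, 171% and 40.0% of the control value in the female, male and KI tables, so the same difference separates intervals more readily in the KI table. Kdm6a was 20.8 FPKM in the female WT library and 16.9 in the female KO library, 7.87 and 2.08 in the male WT and KO libraries, and 12.8 and 13.2 for Ctrl-KI and KI. Each value covers the whole gene, and which exons were deleted or exchanged is not given, so it checks the labels only weakly. Of 11 markers of myoblasts and muscle, 4 were at least 2-fold lower in the female KO library, 5 of 10 kept in male KO cells and 0 in KI cells. Over all kept genes these shares were 4.4%, 6.47% and 0.893%. In males 1 marker was at least 2-fold higher, beside 9.9% of kept genes. It was the satellite cell gene Pax7, at 5.82 and 16.3 FPKM.

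The stromelysins Mmp3 and Mmp10, which cut proteoglycans and non-fibrillar matrix proteins and activate other precursors, and the collagenase Mmp13, which cuts fibrillar collagen, stood furthest from the control in the female table. They lie in the metalloproteinase gene cluster of mouse chromosome 9. On mm9, the build of the files, Mmp13 spans chr9:7272514-7283333, Mmp3 chr9:7445822-7455974 and Mmp10 chr9:7502360-7510240. Their promoters are shown because all 3 genes were higher in the female KO library and share 2 short motifs. Each line gives the 250 bases before the RefSeq start (build GRCm38.p6, plus strand), with the AP-1 motif TGANTCA and the TATA motif TATAAA in capitals. The windows are chr9:7445572-7445821 for Mmp3, chr9:7502092-7502341 for Mmp10 and chr9:7272264-7272513 for Mmp13.
Mmp3: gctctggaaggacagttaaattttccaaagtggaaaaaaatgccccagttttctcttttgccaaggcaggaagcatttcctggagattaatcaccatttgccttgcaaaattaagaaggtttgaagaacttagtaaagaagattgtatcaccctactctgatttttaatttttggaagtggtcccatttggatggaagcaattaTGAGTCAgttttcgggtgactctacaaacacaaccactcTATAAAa
Mmp10: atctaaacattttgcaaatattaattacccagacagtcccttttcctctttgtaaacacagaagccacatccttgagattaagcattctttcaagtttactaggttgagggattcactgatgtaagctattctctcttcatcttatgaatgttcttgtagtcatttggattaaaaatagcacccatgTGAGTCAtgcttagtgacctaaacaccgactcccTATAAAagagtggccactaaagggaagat
Mmp13: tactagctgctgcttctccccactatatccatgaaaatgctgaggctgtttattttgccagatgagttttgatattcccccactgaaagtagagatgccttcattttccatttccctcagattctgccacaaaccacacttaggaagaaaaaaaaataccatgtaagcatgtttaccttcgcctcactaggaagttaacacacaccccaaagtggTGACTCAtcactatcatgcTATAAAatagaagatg

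An AP-1 motif, the binding sequence of Fos and Jun family dimers, began 46 bases before the start of Mmp3, 63 before that of Mmp10 and 35 before that of Mmp13. A TATA motif followed it in all 3, beginning 7, 29 and 16 bases before the start. Over 32851 mouse promoter windows of the same length, searched on both strands, 6.75% held TGANTCA, 12.4% held TATAAA and 1.21% held both, and the 2 motifs do not overlap here. The promoter table held 7 of the 9 genes, without Mmp2 and Mmp9. The windows of the other 4, Mmp14, Timp1, Timp2 and Timp3, held neither motif. AGGAAG, a core sequence of ETS factors, was found in 29.5% of all windows and in those of Mmp3, Mmp13, Mmp14, Timp1 and Timp3. A match is a description of the letters in the window, and factor binding was not measured.

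Mmp3 was 1.74 FPKM in the female WT library (deposited interval 0.176 to 3.31) and 27.5 FPKM in the female KO library (12.5 to 42.4), a log2 ratio of 3.38. Mmp13 was 1.999 FPKM (0.343 to 3.66) and 26.9 FPKM (12.3 to 41.5), a log2 ratio of 3.22. Mmp10 was 2.56 FPKM (0.426 to 4.69) and 28.4 FPKM (12.9 to 43.8), a log2 ratio of 3.05. The 3 levels lay close together within each female library, with overlapping intervals, and the WT and KO intervals of each gene were apart. Such a gap with the KO interval above was found for 0.664% of all kept genes in the female table. Mmp3 and Mmp10 are close relatives, and 140 of the 1752 words of 50 bases in the Mmp3 transcript (7.99%) also occur in that of Mmp10, the only pair among the 36 pairs of these genes that shares any. Reads from that shared stretch could be assigned to either gene, while the rest of each transcript tells them apart.

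In male cells the same 3 genes were close to absent. Mmp3 was 0.00591 FPKM in the WT library and 0.0743 in the KO library, Mmp13 0.0398 and 0.287, and Mmp10 0.171 and 0.520. All 3 were higher in the KO library, but each deposited KO interval reached 0 and overlapped that of WT, and no gene passed the 1 FPKM filter. In the KI table Mmp3 was listed at 0 in Ctrl-KI and at 0.226 FPKM in KI cells (0.128 to 0.323). Mmp13 was 0.0183 FPKM (0 to 0.0386) and 0.647 FPKM (0.475 to 0.819), and Mmp10 0.0318 FPKM (0 to 0.0660) and 2.32 FPKM (1.80 to 2.84). The Ctrl-KI and KI intervals were apart for all 3 genes. For Mmp3 both Ctrl-KI bounds were 0, so any KI lower bound above 0 would count as apart. Mmp10 alone passed the filter, through the KI column only, so its log2 ratio of 1.69 had to be positive. Mmp10 was highest of the 3 in every column and Mmp3 lowest in all but female KO cells, where Mmp13 was lowest and the 3 intervals overlapped.

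**Figure D1:**
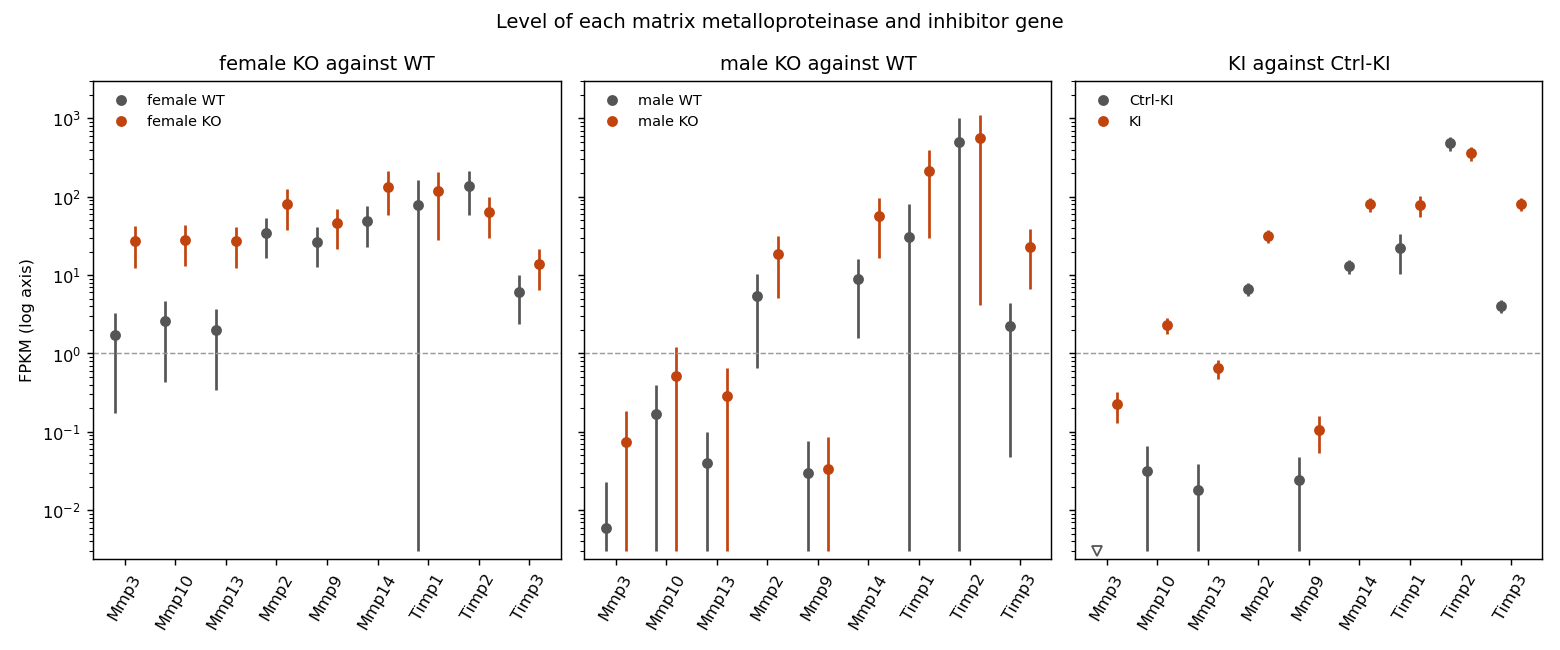
FPKM of the 9 genes on a log axis in the control column (grey) and the mutant column (orange) of each table. Bars are the deposited confidence intervals. Bars that end at the bottom reach 0, except for Mmp9 in Ctrl-KI, whose lower bound is 0.00163 FPKM. The open triangle marks Mmp3, listed at 0 in Ctrl-KI, and the dashed line is the 1 FPKM filter. Mmp3, Mmp10 and Mmp13 lie near 2 FPKM in the female WT library and near 27 FPKM in the female KO library, and under 1 FPKM in both male columns.

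The cluster around these genes was not evenly used. Within 1 Mb of the start of Mmp3 there were 10 metalloproteinase genes, which span 427 kb, and 10 other loci. Besides the 3 genes above, only Mmp12, the macrophage elastase, reached 1 FPKM, at 1.10 FPKM in the female WT library and 5.74 in the female KO library (log2 ratio 1.69), with intervals apart. It was 0.0311 and 0.580 FPKM in the male WT and KO libraries and 0.00403 and 0.681 for Ctrl-KI and KI. Mmp1a, Mmp1b, Mmp7, Mmp8, Mmp20 and Mmp27 stayed under 0.1 FPKM in all 6 columns, although Mmp1a and Mmp1b lie between the genes that differed. The second of the 2 start sites that RefSeq gives for Mmp12 also has an AP-1 motif, here in capitals in the 120 bases before it (GRCm38.p6, plus strand, chr9:7347254-7347373), and the first has none.
Mmp12: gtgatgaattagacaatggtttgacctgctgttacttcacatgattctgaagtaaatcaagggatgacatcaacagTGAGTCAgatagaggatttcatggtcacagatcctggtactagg

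The 7 kept neighbours that are not metalloproteinases had log2 ratios of -0.32 to 1.98 in the female table, with a median of 0.20. The highest of them was Birc3, an inhibitor of apoptosis induced by NF-kappaB signalling. It was 12.4 FPKM in the female WT library and 52.1 in the female KO library, with intervals apart, while its neighbour Birc2 was 26.1 and 34.6. In the other tables no kept neighbour reached 2-fold, with ranges of -0.36 to 0.70 in males, against -0.12 to 0.58 in the KI table. Birc3 was 0.134 and 0.765 FPKM in the male WT and KO libraries and 0.0885 and 0.473 for Ctrl-KI and KI. Its intervals overlapped in males and were apart in the KI table.

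**Figure D2:**
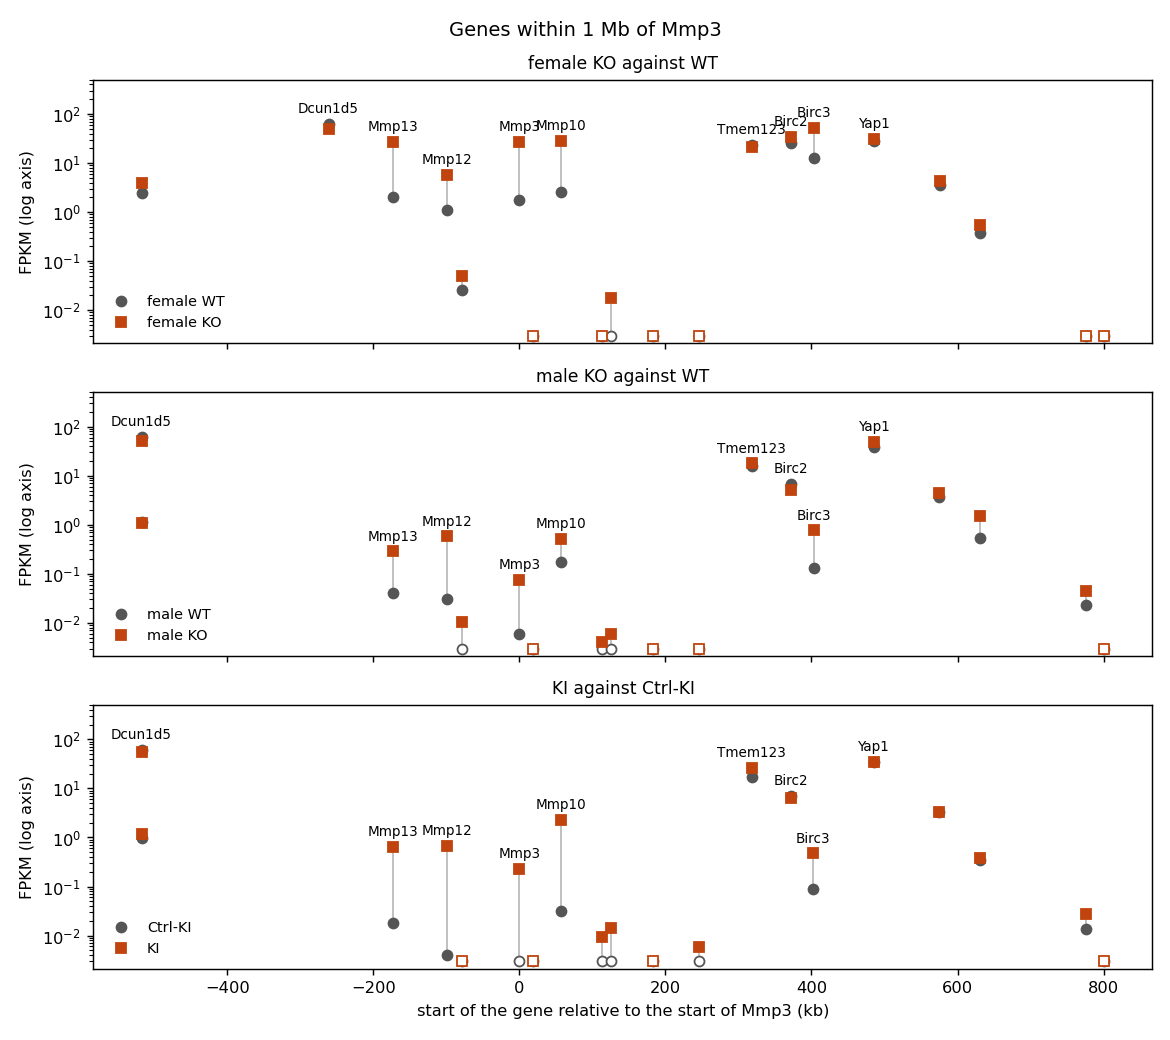
FPKM on a log axis of every named locus within 1 Mb of Mmp3 against the distance of its start from that of Mmp3 in kb, control as circles and mutant as squares, joined by a grey line, with open symbols for values listed at 0 or too low to draw. Mmp13, Mmp12, Mmp3 and Mmp10 are higher in each mutant column, and so is Birc3, whereas Tmem123, Birc2, Yap1 and Dcun1d5 differ by less than 2-fold.

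The membrane-bound Mmp14, which cuts fibrillar collagen at the cell surface and activates the Mmp2 precursor, and the gelatinase Mmp2, which cuts basement membrane collagen, were the 2 most abundant of the 6 enzymes in every column. Mmp14 (mm9 chr14:55050441-55060095 in the female table) was 49.2 FPKM in the female WT library (23.0 to 75.4) and 134 in the female KO library (58.7 to 210.3), a log2 ratio of 1.43. In male cells it was 8.86 FPKM (1.56 to 16.2) and 56.7 FPKM (16.4 to 97.1), a log2 ratio of 2.55. The KI table gave 12.9 FPKM (10.2 to 15.6) and 81.0 FPKM (64.1 to 97.8), a log2 ratio of 2.56. The mutant column was the higher one in each table, with intervals that overlapped in females and were apart in males and in the KI table.

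Mmp2 (mm9 chr8:95351227-95377319) followed Mmp14 in every column at a lower level. It was 34.9 FPKM in the female WT library (16.3 to 53.4) and 81.3 in the female KO library (37.4 to 125), a log2 ratio of 1.20. In male cells it was 5.45 FPKM (0.644 to 10.3) and 18.5 FPKM (5.04 to 31.9), a log2 ratio of 1.59. In the KI table Mmp2 was 6.63 FPKM (5.34 to 7.93) and 31.3 FPKM (25.4 to 37.2), a log2 ratio of 2.08. The intervals were apart only in the KI table. Mmp2 and Mmp14 together held 71.7% of the summed FPKM of the 6 enzymes in the female WT library and 62.6% in the female KO library, and between 97.1% and 99.6% in the male and KI columns.

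Mmp9, the other gelatinase and a product typical of neutrophils and macrophages (mm9 chr2:164773751-164781346), passed the filter in the female table only. It was 26.8 FPKM in the female WT library (12.6 to 41.0) and 46.1 in the female KO library (21.7 to 70.4), a log2 ratio of 0.76, with overlapping intervals. In male WT and KO cells it was 0.0298 and 0.0334 FPKM, and for Ctrl-KI and KI 0.0244 and 0.106. It was the member just outside 2-fold in the female table, where Timp3, at 1.06, was just inside. In males the nearest on either side were Mmp2 at 1.59 and Timp2 at 0.17, and for KI Mmp10 at 1.69 and Timp2 at -0.42. The female, male and KI tables were estimated separately, so the difference in level between them was not tested. Neutrophil markers were low throughout, with a summed level of 0.506 and 1.20 FPKM in the female WT and KO libraries, S100a9, Ltf, Mpo, Ngp and Elane listed at 0 in both. The leukocyte marker Ptprc was listed at 0 in the female WT library and at 0.00565 FPKM in the female KO library, and the macrophage receptor Csf1r was 0.477 and 2.58 FPKM. Cd68, a lysosomal protein of macrophages, was 7.25 and 11.5 FPKM, the highest of the macrophage genes there. The part of these cells in the Mmp9 values was not tested.

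**Figure D3:**
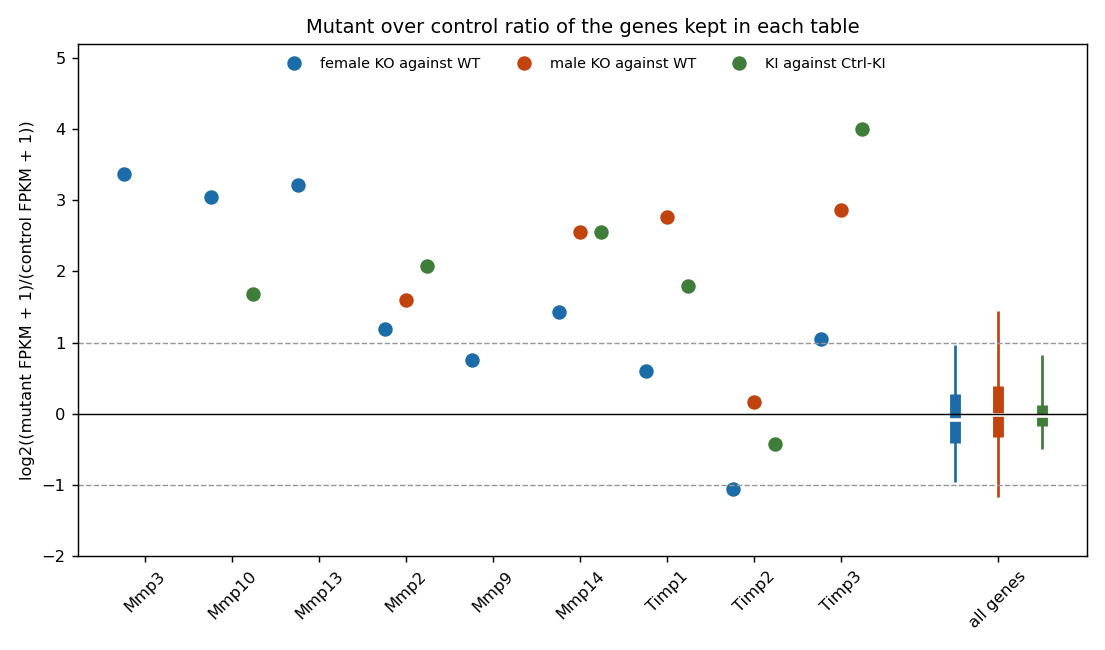
Log2 ratio of mutant over control, with 1 FPKM added to both, for each of the 9 genes in the tables where it passed the filter, beside all kept genes (thick bar, middle 50%; thin bar, 5% to 95%; white line, median); dashed lines mark 2-fold. Mmp14, Mmp2 and Timp3 lie above 2-fold in all 3 tables and Timp2 is the only gene below 0, in the female and KI tables (also in males, at -0.63, after rescaling to TPM over all loci).

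Timp3, an inhibitor that is held in the matrix and also acts on ADAM proteases, was higher in each mutant column. Timp3 was 6.17 FPKM in the female WT library (2.35 to 9.99) and 13.9 in the female KO library (6.42 to 21.4), a log2 ratio of 1.06. In male cells it was 2.22 FPKM (0.0477 to 4.40) and 22.5 FPKM (6.71 to 38.4), a log2 ratio of 2.87. In the KI table it was 4.05 FPKM (3.24 to 4.86) and 80.4 FPKM (65.1 to 95.7), a log2 ratio of 4.01, the highest among the kept members in any table with 1 FPKM added. The plain quotient of FPKM in that table was 19.8 for Timp3, below 72.9 for Mmp10 and 35.4 for Mmp13, whose control values were near 0. The intervals were apart in the male and KI tables and overlapped in the female table. Timp3 lies within Syn3 and on the other strand, and the files give both genes the same locus (mm9 chr10:85511491-85961641). Strand is not stated for the counting, but Syn3 stayed at or under 0.0928 FPKM in all columns.

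Timp1, a secreted inhibitor that also binds the surface protein Cd63, was higher in each mutant column too. It was 77.9 FPKM in the female WT library (0 to 163) and 119 in the female KO library (27.8 to 209.99), a log2 ratio of 0.60. In male cells it was 30.3 FPKM (0 to 80.2) and 211 FPKM (29.9 to 393), a log2 ratio of 2.76. The KI table gave 22.0 FPKM (10.2 to 33.8) and 78.5 FPKM (54.4 to 103), a log2 ratio of 1.79, which was 0.97 after rescaling to TPM over all loci. In females and males the control interval reached 0, and its upper bound lay above the lower bound of the KO interval. The intervals were apart only in the KI table. Timp1 lies within Syn1 on the opposite strand of the X chromosome, and the files again give both genes 1 locus. Syn1 was between 1.01 and 2.92 FPKM in the 6 columns, and 1.01 and 2.92 were its male WT and KO values.

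Timp2, the most abundant inhibitor in 5 of the 6 columns, did not follow the other 8 genes. Timp2 was 136 FPKM in the female WT library (59.0 to 213) and 64.6 in the female KO library (29.8 to 99.3), a log2 ratio of -1.06. In male cells it was 496 FPKM (0 to 1000.3) and 556 FPKM (4.21 to 1108), a log2 ratio of 0.17. In the KI table it was 484 FPKM (387 to 580.0) and 360.5 FPKM (290 to 431), a log2 ratio of -0.42. The mutant and control intervals overlapped in every table. In female KO cells Timp1 stood above Timp2, with overlapping intervals, whereas in every other column Timp2 was the higher of the pair. The female value is just past 2-fold and was -0.98 when centred on the median of all genes, and the male value was -0.63, below control, when rescaled to TPM over all loci.

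Across the 9 genes, 6 were at least 2-fold higher in the female KO library, beside 4.49% of all kept genes, and 1, Timp2, was at least 2-fold lower, beside 4.4%. In males 5 of the 9 passed the filter. Of these, 4 were at least 2-fold higher, beside 9.9% of kept genes, and 0 lower, beside 6.47%. Of the 9, 6 passed the filter in the KI table: 5 were at least 2-fold higher, beside 3.86%, and 0 lower, beside 0.893%. Since these genes were picked with such ratios in view, the counts describe them and support nothing. Mmp2, Mmp14 and Timp3 were at least 2-fold higher in all 3 tables, although Mmp2 in males was 0.78 when rescaled to TPM over all loci and Timp3 in females was 0.76 with a pseudocount of 5 FPKM. With that rescaling, 2-fold genes were higher in 73.7%, 9.12% and 10.4% of cases in the female, male and KI tables, against 50.5%, 60.5% and 81.2% as computed here. On plain FPKM with no filter, 8 of the 9 were above control in all 3 tables, as were 24.0% of the 15031 symbols that could be compared, and the exception was Timp2.

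Deposited intervals were apart with the mutant higher for 3 of the 9 genes in females, 2 in males (0.603% of kept genes) and 8 in the KI table (8.27% of kept genes), 3 of the 8 at levels under the filter. Those under the filter include Mmp3, whose Ctrl-KI bounds were both 0. None of the 9 had intervals apart with the mutant lower, which was the case for 0.235%, 0.262% and 3.73% of kept genes in the female, male and KI tables. The KI values pool 2 libraries and have narrow intervals, so these counts do not rank the tables.

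For the 9 genes alone, which were chosen because several differed, summed inhibitor FPKM per summed enzyme FPKM was lower in each mutant column. Over the whole family this held in the female and KI tables but not in males. The 6 enzymes summed to 117 FPKM in the female WT library and 345 in the female KO library, 14.6 and 76.1 in the male WT and KO libraries, and 19.6 and 116 for Ctrl-KI and KI. The 3 inhibitors summed to 220.1 and 197 FPKM, 528 and 790 FPKM, and 510 and 519 FPKM in the same order. Among the 9, inhibitor RNA per enzyme RNA was thus 1.88 and 0.573 in the female WT and KO libraries, 36.3 and 10.4 in males, and 26.0 and 4.50 for Ctrl-KI and KI. With the further family genes described below added, 23 enzymes and 5 inhibitors in all, it was 1.26 and 0.519 in females, 5.24 and 5.59 in males, and 6.08 and 2.97 for Ctrl-KI and KI. Without Mmp23, which is merged with Mib2 in 2 of the tables, the male values were 6.09 and 6.16. Mmp15, which was lower in the male KO library, was the largest of the added enzymes there. A sum of RNA levels does not measure protein or enzyme activity. Timp2 held 93.9% of the inhibitor sum in the male WT column and 94.9% for Ctrl-KI, but 61.8% in the female WT library. In KI cells Timp1 and Timp3 held 15.1% and 15.5%, up from 4.32% and 0.795% in Ctrl-KI cells. Mmp3, Mmp10 and Mmp13 together held 5.38% of the enzyme sum in the female WT library and 24.0% in the female KO library, and between 0.255% and 2.76% in the other columns.

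**Figure D4:**
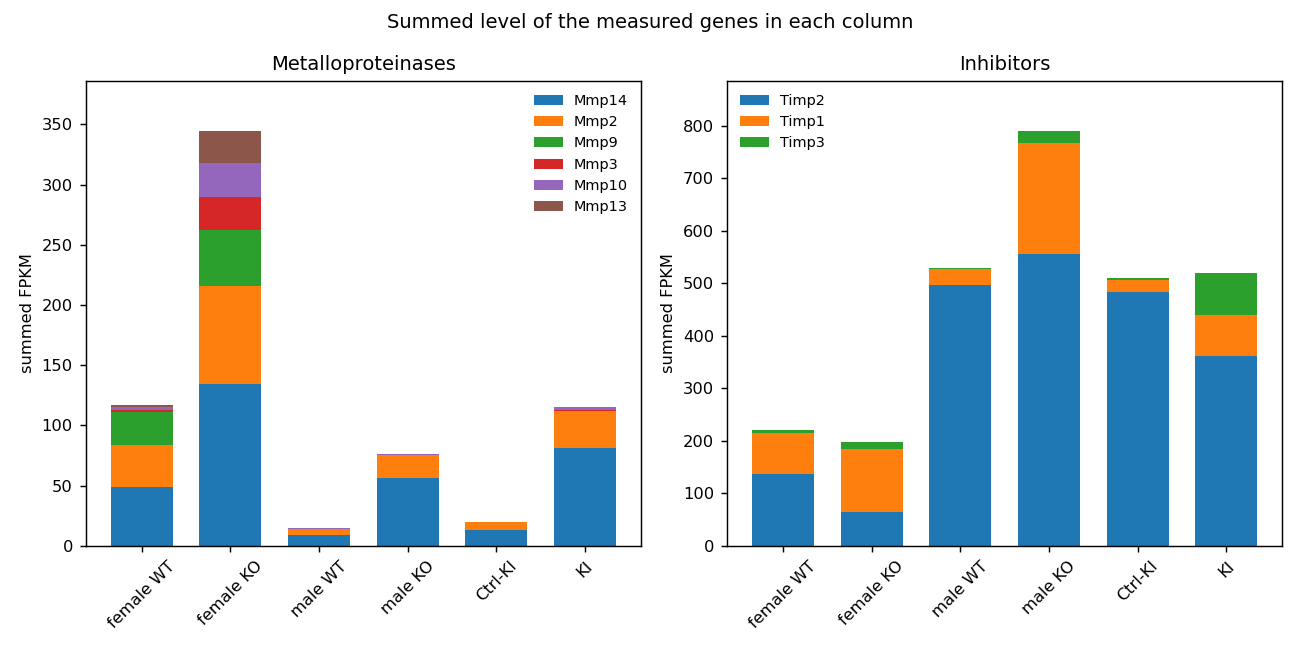
Summed FPKM of the 6 enzymes (left) and the 3 inhibitors (right) in each of the 6 columns, stacked by gene. The sum of these 6 enzymes is higher in each mutant column, for example 345 against 117 FPKM in females, while the inhibitor sum is 197 against 220.1 FPKM there, with Timp2 at 32.7% of it in the KO library and 61.8% in the WT library.

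Other genes of the family did not share one direction. Of 19 further metalloproteinases and inhibitors, 7, 5 and 6 were kept in the female, male and KI tables, 1 of them only through the male KO column and 2 only through the KI column. Their median log2 ratios were -0.08, 0.32 and 0.37. The membrane-bound Mmp15 lay below control in every table, at 13.0 and 4.22 FPKM in females (log2 ratio -1.43), 57.9 and 31.6 FPKM in males (-0.85), then 38.3 and 25.2 FPKM in the KI table (-0.58). Among the enzymes of this family it was the highest of all in male WT and Ctrl-KI cells, above Mmp14. Mmp11, a secreted enzyme that leaves most matrix proteins uncut, was 32.2 and 17.7 FPKM in females, 10.9 and 14.9 in males, then 13.0 and 13.8 in the KI table. Mmp17, anchored to the membrane by a lipid, was 1.22 and 1.64 FPKM in females and 0.0587 and 1.19 in the KI table. The membrane-anchored inhibitor Reck was 1.46 and 1.33 FPKM in females, 0.787 and 1.80 in males, then 0.860 and 1.56 in the KI table. Mmp23 was 8.49 and 6.06 FPKM in females and is merged with Mib2 in the other tables.

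Genes that activate or restrain these enzymes were, where past 2-fold, all above control. In the list of the plasminogen system, cathepsins and other activators and inhibitors, 5 of 16 kept genes were at least 2-fold higher in females, 7 of 12 in males, then 6 of 13 in the KI table, and 0 were 2-fold lower in any table. Of those kept, 2, 4 and 5 passed through the mutant column only, so the ratios of these had to be positive. The median log2 ratios were 0.60, 1.05 and 0.99. Over all kept genes, 4.49%, 9.9% and 3.86% were at least 2-fold higher in females, males and KI. The shares at least 2-fold lower were 4.4%, 6.47% and 0.893%. These shares, and the limit on genes kept through the mutant column only, also apply to the lists below. Plau, the urokinase that makes plasmin, was 40.1 and 81.7 FPKM in females and 49.0 and 152 in males, but 27.7 and 26.6 in the KI table. Plat, the tissue plasminogen activator, was 4.81 and 12.9 FPKM in females, 0.487 and 4.91 in males, then 0.431 and 6.47 in the KI table. Plaur, the urokinase receptor, was 3.80 and 30.7 FPKM in males.

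The broad protease inhibitor A2m was 3.83 and 25.5 FPKM in females and under 0.01 FPKM in the other columns. Ctsk, a collagen-cutting cathepsin, was 5.11 and 21.6 FPKM in females, 0.318 and 1.07 in males, then 0.142 and 8.94 in the KI table. Furin, which cuts the Mmp14 precursor, hardly differed, at 47.0 and 46.6 FPKM in females and 55.0 and 43.8 in males. Serpinh1, the collagen chaperone, was 189 and 135 FPKM in females and 606 and 457 in males.

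ADAM and ADAMTS proteases, which shed surface proteins and cut procollagens and proteoglycans, differed by gene. At least 2-fold higher were 0 of 20 kept genes in females, 1 of 14 in males, then 4 of 16 in the KI table, and 2 were 2-fold lower in males. Through the mutant column alone passed 0, 2 and 3 of them, with median log2 ratios of 0.28, 0.25 and 0.13. Adamts9 was 1.68 and 3.80 FPKM in females, the highest ratio there at 0.84. Adamts10 was 0.645 and 4.45 FPKM in males and Adamts1 18.0 and 6.37, the lowest male ratio at -1.37. In the KI table the higher ones included Adamts12, at 0.454 and 7.44 FPKM, and Adamts2, the procollagen proteinase, at 0.246 and 4.17 FPKM.

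The matrix proteins that these enzymes cut were, where past 2-fold, above control with 1 exception in the KI table. Of 23 substrates, 10 of 20 kept genes were at least 2-fold higher in females, 11 of 19 in males, then 17 of 21 in the KI table, where 1 was 2-fold lower. Through the mutant column alone passed 0, 2 and 6 of them. The median log2 ratios were 0.90, 1.23 and 3.01. At least 2-fold higher in both KO tables were Col1a2, Fn1, Nid1, Bgn, Vcan, Fbn1 and Tnc. Fibronectin, Fn1, was 140 and 349 FPKM in females, 27.0 and 327 in males, then 20.6 and 225 in the KI table. The basement membrane linker Nid1 was 40.4 and 99.99 FPKM in females, 2.87 and 67.1 in males, then 1.08 and 39.7 in the KI table, whereas its relative Nid2 was 9.74 and 10.2, 54.4 and 39.7, and 19.5 and 7.07 FPKM. The collagen gene Col1a2, a target of Mmp13 and Mmp14, was 90.8 and 202 FPKM in females, 1.71 and 5.37 in males, then 0.943 and 149 in the KI table.

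Surface proteins that hold, clear or regulate the enzymes were split. At least 2-fold higher were 4 of 13 kept genes in females, 5 of 12 in males, then 5 of 13 in the KI table, and 0 were 2-fold lower, with 0, 2 and 3 kept through the mutant column alone. Cd44, the hyaluronan receptor that docks Mmp9 and Mmp14, was 20.6 and 51.5 FPKM in females and 36.8 and 134 in males, but 25.2 and 34.8 in the KI table. Lrp1, the scavenger receptor that clears Mmp2, Mmp9 and Mmp13, was 52.3 and 111 FPKM in females, 35.9 and 89.1 in males, then 29.4 and 46.5 in the KI table. Thbs2, which brings Mmp2 to Lrp1, was 5.01 and 12.8, 0.812 and 2.83, and 0.820 and 17.0 FPKM. Caveolin-1, Cav1, was 17.4 and 20.9 FPKM in females and 0.775 and 32.9 in males. Bsg, known as an inducer of metalloproteinases, and Cd63 were among the most abundant of the list and within 2-fold of control in every table.

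Transcription factors known to act on metalloproteinase promoters differed by gene. Of 20 kept in each table, 6, 5 and 2 were at least 2-fold higher and 0 were 2-fold lower, with median log2 ratios of 0.53, 0.40 and 0.36. The AP-1 member Fosl1 was higher in both KO tables, at 10.3 and 23.1 FPKM in females and 1.87 and 9.76 in males, and was 0.950 and 1.43 in the KI table. Fosl2 was 77.0 and 169.6 FPKM in females and 20.6 and 18.4 in males. Jun, the most abundant AP-1 gene in female and male WT and in Ctrl-KI cells, was 142 and 138 FPKM in females, 153 and 95.7 in males, then 139 and 112 in the KI table, and Fos was 24.9 and 24.1 FPKM in females. The ETS factor Ets1 was 21.9 and 58.2 FPKM in females and 5.96 and 12.5 in males. Its relative Etv4 was 4.02 and 4.01 FPKM in females, 1.89 and 14.9 in males, then 1.14 and 6.21 in the KI table. The NF-kappaB gene Nfkb1 was 34.4 and 74.6 FPKM in females, 12.8 and 17.0 in males, then 12.6 and 19.9 in the KI table.

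Among 15 cytokines and growth factors known to induce metalloproteinases, 4 of 11 kept genes were at least 2-fold higher in females, 4 of 9 in males, then 5 of 9 in the KI table, with 3, 3 and 2 kept through the mutant column alone, and 1 was 2-fold lower in males. Il6 was 2.52 and 9.25 FPKM in females and 0.224 and 3.73 in the KI table, and stayed under 1 FPKM in males. Lif was 13.2 and 33.6 FPKM in females and 2.92 and 3.21 in males. The growth factor Hbegf, which is shed by metalloproteinases, was 8.74 and 19.5 FPKM in females, 4.27 and 20.2 in males, then 6.18 and 18.8 in the KI table. Tgfb3 lay below control, at 81.5 and 51.5 FPKM in females, 158 and 34.5 in males, then 178 and 144 in the KI table. Tnf, Il1a, Il1b and Osm, the classical inducers of Mmp3 and Mmp13, did not reach 1 FPKM in any column.

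**Figure D5:**
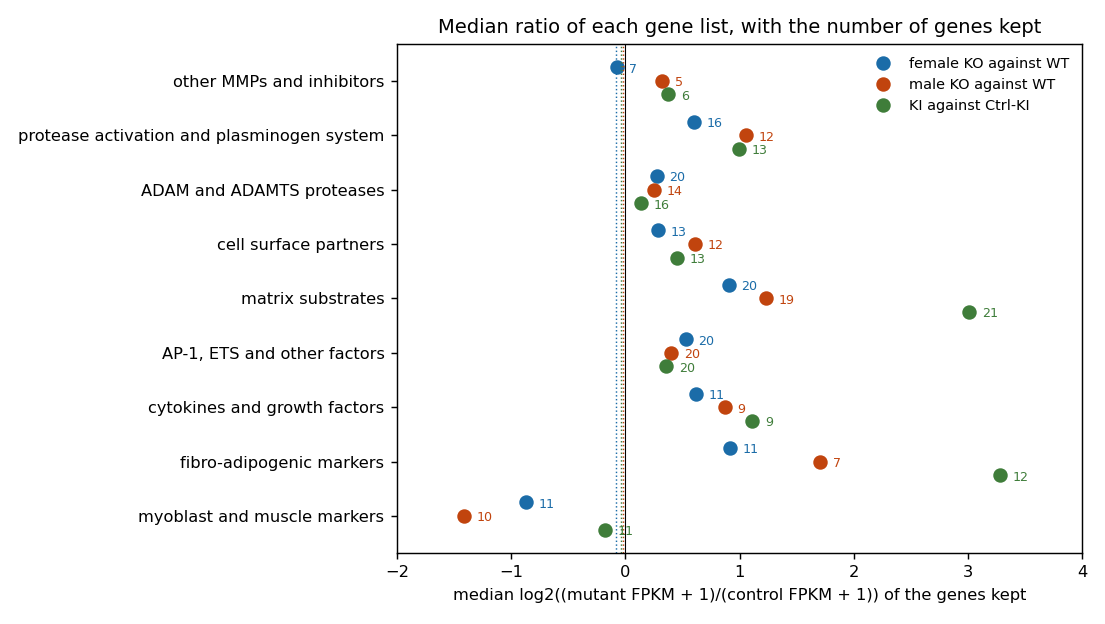
Median log2 ratio of the genes kept from each list in the female (blue), male (orange) and KI (green) tables, with the number of genes kept beside each point and dotted lines at the median of all kept genes. Matrix substrates and fibro-adipogenic markers lie furthest to the right in the KI table, at 3.01 and 3.28, and myoblast and muscle markers furthest to the left in the male table, at -1.41.

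Most markers of connective tissue cells, but not all, were higher beside the metalloproteinases. Of 15 fibro-adipogenic markers, 4 of them also in the substrate list, 5 of 11 kept genes were at least 2-fold higher in females, 6 of 7 in males, then 11 of 12 in the KI table, with 0, 3 and 10 kept through the mutant column alone. Their summed level was 480 and 1067 FPKM in the female WT and KO libraries, 48.0 and 170.1 in males, and 31.4 and 625 for Ctrl-KI and KI. Pdgfra, which defines these cells, was 2.46 and 13.7 FPKM in females, 0.179 and 0.697 in males, then 0.162 and 1.19 in the KI table. Lum was listed at 0 in both male columns and in Ctrl-KI cells, and Pi16 in the female WT library. Gsn and Dpp4 were lower in the female KO library, Gsn at 41.5 and 31.0 FPKM. In males Postn was 0.274 and 0.258 FPKM, and for KI Dpp4 was 0.135 and 0.0464 FPKM, with intervals apart. Gsn and Col3a1, at 69.7 and 59.1 FPKM, made up most of the male KO sum. The female WT column listed more of these markers, and more Mmp2, Mmp9 and Mmp14, than the controls of the other tables, which were estimated separately. The protocol sorted cells on the reporter before culture. In bulk RNA, more cells of a type and more RNA per cell cannot be told apart, and the part of these markers in the results was not tested.

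Markers of other cell types differed by table. In males, 4 endothelial genes were kept and all 4 were at least 2-fold higher, 3 of them through the KO column alone, and the 9 genes summed to 2.05 and 70.7 FPKM. Emcn alone was 0.0268 and 40.6 FPKM, and the genes not kept stayed under 1 FPKM in both male columns. Vwf was lower in each mutant column, for example at 0.697 and 0.559 FPKM in males. In females 0 of 7 kept endothelial genes reached 2-fold, with sums of 21.1 and 33.1 FPKM, and for KI the sums were 2.76 and 9.68 FPKM. Of 9 pericyte and smooth muscle genes, 7 were kept in females, 4 in males and 7 for KI. At least 2-fold higher were 1, 2 and 4 of them, and 2-fold lower 2, 2 and 0. Of those kept, 0, 1 and 4 passed through the mutant column only, so the ratios of these had to be positive. The 4 higher ones for KI had intervals apart. Pdgfrb, a receptor of pericytes and fibroblasts, was 8.78 and 21.7 FPKM in females, 0.269 and 0.655 in males, then 0.442 and 26.7 for KI. Acta2 was lower in each mutant column, for example at 663 and 312 FPKM in females. The list summed to 793 and 462 FPKM in females, 2102 and 862 in males, then 2350.0 and 2021 for KI, most of it Acta2 in every column. The male sums include Tagln, at 83.4 and 124 FPKM, whose quantification status was not OK. Of 12 macrophage genes found, 1 of 2 kept was at least 2-fold higher in females, 1 of 2 in males, and 4 of 5 for KI. All of these higher genes were kept through the mutant column alone. For KI, Lyz2 was listed at 0.282 and 31.0 FPKM and C1qb at 0.0180 and 3.91 FPKM, while Csf1r was 0.00621 and 0.650 and Ptprc 0.00345 and 0.224. Itgam was lower, at 0.689 and 0.331 FPKM with intervals apart, and Mrc1 was 0.226 and 0.208. Cd68, counted among those kept, is merged with other symbols in the male and KI tables, and its values there were not read. Of the muscle markers, the myoblast gene Myod1 was 190 and 104 FPKM in females, 1005 and 701 in males, then 906 and 620 in the KI table. The share of these cell types in the metalloproteinase values was not tested.

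The genes whose 3 ratios lay nearest to those of a member were found by Euclidean distance over the 3 tables, among 7114 genes with at least 5 FPKM in 1 column of each. Nearest to Mmp2 were Ext1, an enzyme of heparan sulfate synthesis (distance 0.29), the proteoglycan gene Vcan (0.37) and the cell cycle inhibitor Cdkn2b (0.51). Nearest to Timp1 were Tagln2 (0.14), the secreted protease Htra1 (0.41) and the thrombin receptor F2r (0.53). Nearest to Timp2 were Zfp692, 1810027O10Rik and Pitpnm2, at 0.07, 0.13 and 0.13. Mmp3 was not kept in all 3 tables and got no such ranking. Each distance rests on only 3 ratios per gene.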

How the data were processed

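RNA was measured in 8 libraries of 6 groups, assigned from their titles. The authors deposited 3 gene tables that hold, per the file headers, FPKM, its confidence bounds and a quantification status for 2 columns each. Per the submitters' processing notes the build was mm9 and the tools were edgeR, HTSeq 0.6.1, Cuffdiff, Cufflinks 2.2.1, TopHat2 2.0.12, Bowtie2 2.2.4, and bedtools 2.16.2, in no stated order. The annotation, strand setting, confidence level and scaling between libraries are not given in the sources used here. FPKM keeps no total, so read depth is unknown, and an exact 0 can be a failed estimate. The KI table pools 2 libraries per column, so no replicate test was possible in any table.

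Loci without a symbol (0 in females, 5680 in males, 5971 for KI) or with a status other than OK (6, 61 and 15 of those with a symbol) were left out of ratios and counts. Genes under 1 FPKM in both columns were not given a ratio. Sums of a list kept every listed gene that was found, whatever its status. Starts were counted from 0 in the files (210 of 211 microRNA loci had the RefSeq length only then) and are printed 1 higher. Promoters came from the RefSeq GRCm38.p6 table and were read by symbol. A protein table was not used here, so protein sequences were not compared. Ratios, 2-fold counts and lists were computed with python 3.11.15, pandas 2.3.3 and numpy 2.4.6, and the counting was tested on simulated data.

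The members and the 7 gene lists were chosen with earlier results of these tables known. Of each list the 2 highest and 2 lowest genes in either KO table and those past 2-fold in both were to be named, and not all of them are; one gene of the lists is not reported here. Birc3, Nfkb1, Reck in the KI table and genes given for the KI table, for low inducers and for cell type markers were chosen after their values were seen. Alternatives were TPM over all loci or loci with a symbol, ratios centred on their median, pseudocounts of 0.1 and 5 FPKM, a filter of 5 FPKM or none, non-overlapping intervals, every status, and leaving out merged symbols or small RNA genes. Sums over all family genes were added after seeing the data.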

Additional observations from a re-analysis of the deposited data

Results flagged for a closer look

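Timp2 lay on opposite sides of its control in the 2 sexes. Its log2 ratio of KO over WT was -1.06 in the 1 female pair of libraries and 0.17 in the 1 male pair. The deposited intervals of WT and KO overlapped in both tables, and the difference between the sexes was not tested. With values rescaled to TPM over all loci the male ratio was -0.63, on the same side as the female one.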

How the results depend on the processing

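No paired analysis was possible because the KI table gives 1 pooled column per group and the other groups have 1 library each, so leaving out a replicate and the replicate block were not run either. Of 100 ratios of the members recomputed with other pseudocounts, centring or scaling, 99 kept their sign. The exception was Timp2 in males, -0.63 with TPM over all loci. Of the 100, 91 lay within the range the deposited intervals allow and 9 did not, all in the KI table, among them Mmp10 at 4.20 and 0.54 with pseudocounts of 0.1 and 5 FPKM. Of 132 counts, 102 were within 1.5 times the reported one.

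Rescaling to TPM over all loci moved the median log2 ratio of all genes to 0.10 in females, -0.70 in males and -0.77 in the KI table, since loci without a symbol held 72.8% and 86.1% of the male WT and KO sums and 57.1% and 77.6% of the Ctrl-KI and KI sums. Genes at least 2-fold higher then numbered 1197 in females, 253 in males and 196 in the KI table, and genes at least 2-fold lower 2520 in males and 1685 in the KI table, where 1 member, Timp2, joined them. The share of higher genes among 2-fold genes moved from 50.5% to 73.7% in females, from 60.5% to 9.12% in males and from 81.2% to 10.4% in the KI table. Mmp2 in males was then 0.78 and Timp1 for KI 0.97, both under 2-fold. With TPM over loci with a symbol the higher genes were 1197, 1821 and 680, with shares of 73.7%, 72.2% and 86.3%. Under both TPM scalings and with median-centred ratios, 0 members were 2-fold lower in females, and centring moved the share of higher genes there to 63.2%.

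A pseudocount of 5 FPKM gave 196 higher and 246 lower genes in females, 443 and 475 in males (a share of 48.3% higher) and 177 and 47 for KI. A pseudocount of 0.1 FPKM gave 938 higher genes in females and 168 lower genes in the KI table, and a filter of 5 FPKM gave 262 higher genes in the KI table. With non-overlapping intervals as the rule, 82 genes were higher and 29 lower in females, 69 and 30 in males, then 917 and 413 for KI, with shares of 73.9%, 69.7% and 68.9% higher. By that rule 3 members were higher and 0 lower in females and 2 were higher in males. The cause of these shifts was not tested beyond the shares of the sums given above. An alternative chosen after seeing the data summed all family genes in place of the 9. The log2 ratio of mutant over control of inhibitor per enzyme FPKM was then -1.283 in females, 0.09422 in males and -1.033 for KI, and without Mmp23 -1.332, 0.01692 and -1.094, against -1.71, -1.81 and -2.53 for the 9 genes, so the male direction turned. Timp3 in females was 0.76 with a pseudocount of 5 FPKM.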

Other observations

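Several genes of the lists above lay on opposite sides of control in female and male KO cells, with 1 of the 2 ratios past 2-fold. Adamts1, which cuts aggregating proteoglycans, had log2 ratios of 0.39 in females and -1.37 in males. Fosl2, an AP-1 member, was 1.13 and -0.16. In the other direction Fgf2, a growth factor of myoblasts, was -0.35 and 1.30, the repressor Snai2 was -0.05 and 1.75, and Serpine2, an inhibitor of urokinase and thrombin, was -0.32 and 1.08. The female ratio of Snai2 lay above the female median of all kept genes, -0.08. For each of these genes the WT and KO intervals overlapped in both sexes. These genes were singled out after their values were seen, each sex has 1 library per group, and the differences were not tested.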
